A study of Rattus norvegicus with 9 samples.

Results

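The vascular transcription factors described here are the SoxF proteins Sox7, Sox17 and Sox18, the ETS factors Erg, Fli1 and Ets1, the basic helix-loop-helix factors Tal1 and Lyl1, and the Krüppel-like factors Klf2 and Klf4. They were chosen by gene symbol, with earlier results of these data known, as 10 of the 14607 genes listed in any of the 9 libraries. All 10 were listed in every library and passed the filter on low counts. Messenger RNA had been sequenced from primary cardiomyocyte cultures of newborn SD rats with wild-type genotype, aged 1 to 2 days, kept in medium with 10% fetal bovine serum. All cultures were exposed to a lentivirus for 16 h and kept for a further 48 h. One group received lenti-TCF7L2, which overexpresses TCF7L2, the nuclear partner of β-catenin through which canonical Wnt signals reach genes. A second group received lenti-shTCF7L2, which carries a short hairpin RNA for knockdown of TCF7L2, and the control group received the control vector lenti-NC. Each group held 3 libraries. The study asked, per its title, about TCF7L2 and carbonic anhydrase 2 in the cardiomyopathy of type 2 diabetic mice; these rat cultures are its cell model.

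SoxF and ETS proteins bind enhancers of endothelial genes, often next to each other, and drive the formation of vessels, arteries and lymphatics. TAL1 and LYL1 work in complexes with LMO2, LDB1, GATA2 and E proteins in blood and endothelial cells. KLF2 and KLF4 are induced by laminar blood flow and keep the endothelium quiet and resistant to clotting. In the heart all of these are best known from the vessel and endocardial lining, while KLF4 and ETS1 are also active in fibroblasts, smooth muscle and other cell types.

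The promoters of 4 of the 10 factors were at hand from RefSeq (build GRCr8), and they are shown because TCF7L2, SOX, ETS, GATA and KLF proteins bind short known base strings. Each is the 300 bases from 250 before to 50 after the start of the gene, read 5′ to 3′ along the gene, with motif matches in capitals.
Erg (chr11:48251517-48251816, minus strand): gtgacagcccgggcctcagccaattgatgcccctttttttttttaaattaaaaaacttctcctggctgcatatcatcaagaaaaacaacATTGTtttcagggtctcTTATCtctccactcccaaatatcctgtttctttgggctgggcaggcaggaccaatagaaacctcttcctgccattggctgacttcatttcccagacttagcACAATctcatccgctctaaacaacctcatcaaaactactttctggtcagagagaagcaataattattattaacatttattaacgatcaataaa
Tal1 (chr5:133824214-133824513, plus strand): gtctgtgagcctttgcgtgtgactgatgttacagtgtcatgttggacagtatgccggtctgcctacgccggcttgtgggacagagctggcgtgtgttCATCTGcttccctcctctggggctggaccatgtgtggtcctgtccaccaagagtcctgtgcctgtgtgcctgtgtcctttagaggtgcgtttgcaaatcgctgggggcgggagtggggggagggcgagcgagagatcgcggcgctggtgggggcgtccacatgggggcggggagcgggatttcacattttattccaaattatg
Lyl1 (chr19:40359785-40360084, minus strand): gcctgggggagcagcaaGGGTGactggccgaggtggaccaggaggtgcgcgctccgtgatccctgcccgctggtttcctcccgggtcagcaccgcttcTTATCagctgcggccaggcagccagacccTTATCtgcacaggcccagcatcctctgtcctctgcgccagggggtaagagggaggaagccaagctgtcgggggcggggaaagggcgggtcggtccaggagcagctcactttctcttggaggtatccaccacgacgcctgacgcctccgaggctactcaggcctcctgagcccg
Klf4 (chr5:75078543-75078842, minus strand): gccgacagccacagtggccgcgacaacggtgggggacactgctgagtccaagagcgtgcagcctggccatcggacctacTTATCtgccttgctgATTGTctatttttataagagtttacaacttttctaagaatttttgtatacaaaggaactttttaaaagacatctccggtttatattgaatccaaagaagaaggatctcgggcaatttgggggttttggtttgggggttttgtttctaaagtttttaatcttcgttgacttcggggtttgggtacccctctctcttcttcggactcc
Both strands were searched for 7 motifs. These were CTTTGA for the TCF/LEF factors, ACAAT for the SOX factors, GGAAGT for the ETS factors, CAGATG for the E-box that TAL1 binds, GATAA for the factor family of GATA2, CACCC for the KLF factors, and the MEF2 motif, given by its name. No match overlapped another. The Erg promoter held 2 SOX matches, beginning at -161 and -43 from the start, and 1 GATA match. The Tal1 promoter held 1 E-box match, the Lyl1 promoter 2 GATA matches and 1 KLF match, and the Klf4 promoter 1 SOX and 1 GATA match. No TCF/LEF, ETS or MEF2 match was present in these 4 windows. The MEF2 string had 10 letters, began with CTA, ended with TAG and allowed any base between. Only these letters were searched for each family, so other variants that these factors may bind were not counted. Of 33469 promoters of the same length, 16.1% held the TCF/LEF letters, 33.7% the SOX letters, 22.6% the ETS letters, 16.6% the E-box letters, 26.5% the GATA letters, 54.9% the KLF letters and 3.84% the MEF2 letters. G and C made up 40% of the Erg promoter, 59.3% of Tal1, 66.7% of Lyl1 and 45% of Klf4, against a median of 51.7% over all promoters.

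The libraries held 15085922 to 16478295 expected counts each. Tcf7l2 itself had 2251, 3240 and 1434 counts with lenti-TCF7L2, 388, 465 and 391 with lenti-shTCF7L2, and 595, 540 and 510 with lenti-NC. It rose in lenti-TCF7L2 cultures by a log2 difference of 1.97 (SE 0.27, adjusted p = 0.000846, edgeR quasi-likelihood test) against lenti-NC. With lenti-shTCF7L2 against lenti-NC the difference was -0.43 (SE 0.27, adjusted p = 0.511, edgeR), not past the test, although the 3 lenti-shTCF7L2 libraries lay below the 3 lenti-NC libraries. Lenti-TCF7L2 replicate 3 stood apart by transcript length: relative to lenti-NC, genes over 8000 bases had a median log2 level of -0.98 in it and genes up to 1000 bases 0.49, against -0.33 and 0.14 in replicate 1 and -0.01 and -0.07 in replicate 2. The defining cardiomyocyte gene Myh6 averaged 4100 ± 45.8 CPM (counts scaled to a common library size) with lenti-TCF7L2, 10653 ± 309 with lenti-shTCF7L2 and 11204 ± 221 with lenti-NC (SD, n = 3 each), so the labelled cell type was present in all groups.

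Against lenti-NC, 8 of the 10 factors rose with lenti-TCF7L2 and none fell, while Ets1 and Klf4 did not pass the test. Sox18 rose most, by 11.04-fold, followed by Sox7 (5.04-fold), Erg (3.43-fold), Lyl1 (3.32-fold) and Sox17 (3.03-fold). Tal1 (1.82-fold), Fli1 (1.78-fold) and Klf2 (1.44-fold) rose less. Among all 11761 genes tested, 31.8% were called in either direction and 18.0% were called higher in this comparison (edgeR, adjusted p under 0.05 over all genes). All 3 lenti-TCF7L2 libraries lay above all 3 lenti-NC libraries for 8 factors, where 46.8% of all genes did not overlap between the groups in either direction and 24.9% did not overlap and were higher. A log2 difference of 1 or more was called in 5 of the 10 factors and in 3.38% of all genes tested. The median log2 difference was 1.23 over the 10 factors and 0.03 over all genes. As the factors were chosen with earlier results of these data known, these comparisons with all genes are a description only. In bulk cultures, more cells of a type and more RNA per cell cannot be told apart, and this holds for each result here.

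**Figure D1:**
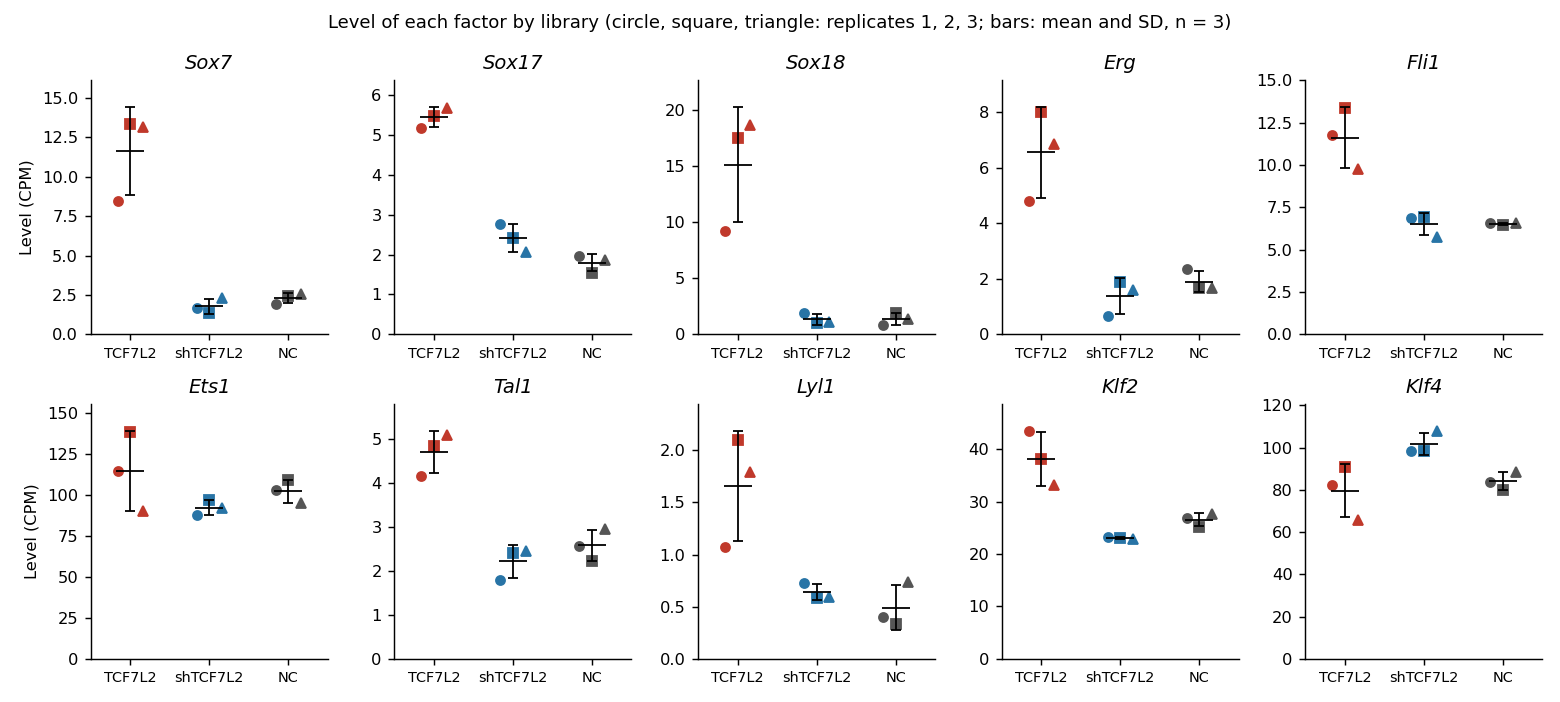
Level of each factor in CPM by library, with lenti-TCF7L2 left, lenti-shTCF7L2 in the middle and lenti-NC right; circles, squares and triangles are replicates 1, 2 and 3, and bars give the mean and SD (n = 3). For 8 factors the 3 lenti-TCF7L2 libraries lie above all others (Sox18 15.2 CPM on average against 1.36 with lenti-shTCF7L2 and 1.37 with lenti-NC), while Ets1 overlaps between groups and Klf4 is highest with lenti-shTCF7L2.

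Sox18, a factor of blood and lymphatic vessel formation, had 147, 275 and 313 counts with lenti-TCF7L2, 29.05, 16.1 and 17 with lenti-shTCF7L2, and 13, 28.05 and 20.01 with lenti-NC. All 3 lenti-TCF7L2 libraries lay far above the other 6, which overlapped each other, and replicate 1 was the lowest of the lenti-TCF7L2 libraries. Sox18 averaged 15.2 ± 5.13 CPM with lenti-TCF7L2, 1.36 ± 0.480 with lenti-shTCF7L2 and 1.37 ± 0.507 with lenti-NC (SD, n = 3 each). Its log2 difference of lenti-TCF7L2 against lenti-NC was 3.46 (SE 0.36, 95% interval 2.65 to 4.28, adjusted p = 0.000249, edgeR), the 7th highest of all genes tested.
Sox7, which acts in endothelial development and arterial identity, had 134, 210.2 and 219.5 counts with lenti-TCF7L2, 24.8, 21.1 and 34.8 with lenti-shTCF7L2, and 28.9, 36.1 and 37.9 with lenti-NC. The lenti-TCF7L2 libraries were again all above the rest, with replicate 1 the lowest. The log2 difference against lenti-NC was 2.33 (SE 0.24, adjusted p = 0.000227, edgeR), the 41st highest.
Sox17, a factor of arterial fate and of endoderm, had 82, 86 and 95 counts with lenti-TCF7L2, 42, 37 and 31 with lenti-shTCF7L2, and 29, 23 and 28 with lenti-NC. The 3 groups did not overlap. Its rise with lenti-TCF7L2 was 1.60 on the log2 scale (SE 0.16, adjusted p = 0.000197, edgeR), with lenti-TCF7L2 averaging 5.44 ± 0.256 CPM and lenti-NC 1.79 ± 0.213 CPM.
The counts of Sox7 were fractional in all 9 libraries and those of Sox18 in 7, while those of Sox17 were whole. An estimated count is fractional where a fragment can be assigned to more than 1 place, and how such fragments were divided was not analysed here.

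Among the ETS factors, Erg, which maintains endothelial identity and junctions, had 76, 126 and 115 counts with lenti-TCF7L2, 10, 29 and 24 with lenti-shTCF7L2, and 35, 25 and 25 with lenti-NC. Every lenti-TCF7L2 library exceeded every other library, and the lowest single value was lenti-shTCF7L2 replicate 1. The log2 difference against lenti-NC was 1.78 (SE 0.32, 95% interval 1.06 to 2.499, adjusted p = 0.00326, edgeR).
Fli1, close to Erg in sequence and active in blood and endothelial cells, had 187, 210 and 163 counts with lenti-TCF7L2, 104, 106 and 87 with lenti-shTCF7L2, and 98, 96 and 98 with lenti-NC. Its rise of 0.83 (SE 0.14, adjusted p = 0.00236, edgeR) was smaller than that of Erg but was seen in all 3 libraries.
Ets1, a broadly used ETS factor of endothelium, lymphocytes and stroma, had 1820.5, 2180 and 1504 counts with lenti-TCF7L2, 1327, 1482 and 1390.1 with lenti-shTCF7L2, and 1529, 1618 and 1421 with lenti-NC. By CPM, lenti-TCF7L2 replicates 1 and 2 lay above all lenti-NC libraries and replicate 3 lay below them, at 89.9 against 94.99 to 109 CPM, and the difference was 0.16 (SE 0.14, 95% interval -0.16 to 0.48, adjusted p = 0.400, edgeR). The Ets1 transcript is 5031 bases long, and without lenti-TCF7L2 replicate 3, in which long transcripts read low, the difference was 0.29 (adjusted p = 0.0125, edgeR). With a length correction in all libraries it was 0.35 (adjusted p = 0.00174). Without lenti-TCF7L2 replicate 2 it was -0.007 (adjusted p = 0.964).
In the GRCr8 gene order Fli1 and Ets1 are neighbours, and of this adjacent pair Fli1 passed the test and Ets1 did not. Of the coding neighbours of Erg, Ets2 had a log2 difference of 0.12 (adjusted p = 0.283, edgeR) and Kcnj15 did not pass the filter on low counts.

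Tal1, a master regulator of blood and an endothelial factor, had 66, 76 and 85 counts with lenti-TCF7L2, 27, 37 and 37 with lenti-shTCF7L2, and 38, 33 and 44 with lenti-NC. The lenti-TCF7L2 libraries did not overlap the others, and the rise against lenti-NC was 0.86 (SE 0.18, adjusted p = 0.00593, edgeR).
Lyl1, its close relative, had 17, 33 and 30 counts with lenti-TCF7L2, 11, 9 and 9 with lenti-shTCF7L2, and 6, 5 and 11 with lenti-NC. All 3 lenti-TCF7L2 libraries exceeded the rest, but the counts were low, at 1.65 ± 0.527 CPM with lenti-TCF7L2 against 0.492 ± 0.213 CPM with lenti-NC. The log2 difference was 1.73 with a wide 95% interval of 0.92 to 2.55 (adjusted p = 0.00664, edgeR).

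Klf2, a flow-responsive factor of quiescent endothelium, had 689, 599 and 554 counts with lenti-TCF7L2, 353, 354 and 345 with lenti-shTCF7L2, and 399, 374 and 415 with lenti-NC. The 3 groups did not overlap, with lenti-TCF7L2 highest and lenti-shTCF7L2 lowest. It averaged 38.2 ± 5.16 CPM with lenti-TCF7L2, 23.1 ± 0.200 with lenti-shTCF7L2 and 26.6 ± 1.29 with lenti-NC, a rise of 0.52 with lenti-TCF7L2 against lenti-NC (SE 0.11, adjusted p = 0.00578, edgeR).
The Klf2 transcript is 1056 bases long, the shortest of the 10, and with the length correction the difference was 0.39 (adjusted p = 0.0761), no longer past the threshold. Klf2 overlaps Eps15l1 in the annotation, and Eps15l1 had a log2 difference of 0.02 (adjusted p = 0.871, edgeR).
Klf4, active in endothelium, smooth muscle, fibroblasts and stem cells, had 1305, 1426 and 1103 counts with lenti-TCF7L2, 1493, 1512 and 1623 with lenti-shTCF7L2, and 1247, 1186 and 1325 with lenti-NC. Only lenti-shTCF7L2 lay above the other libraries, and the lenti-TCF7L2 and lenti-NC values overlapped. The difference with lenti-TCF7L2 against lenti-NC was -0.08 (SE 0.11, 95% interval -0.34 to 0.18, adjusted p = 0.606, edgeR), and without lenti-TCF7L2 replicate 3 it was 0.02 (adjusted p = 0.835).

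**Figure D2:**
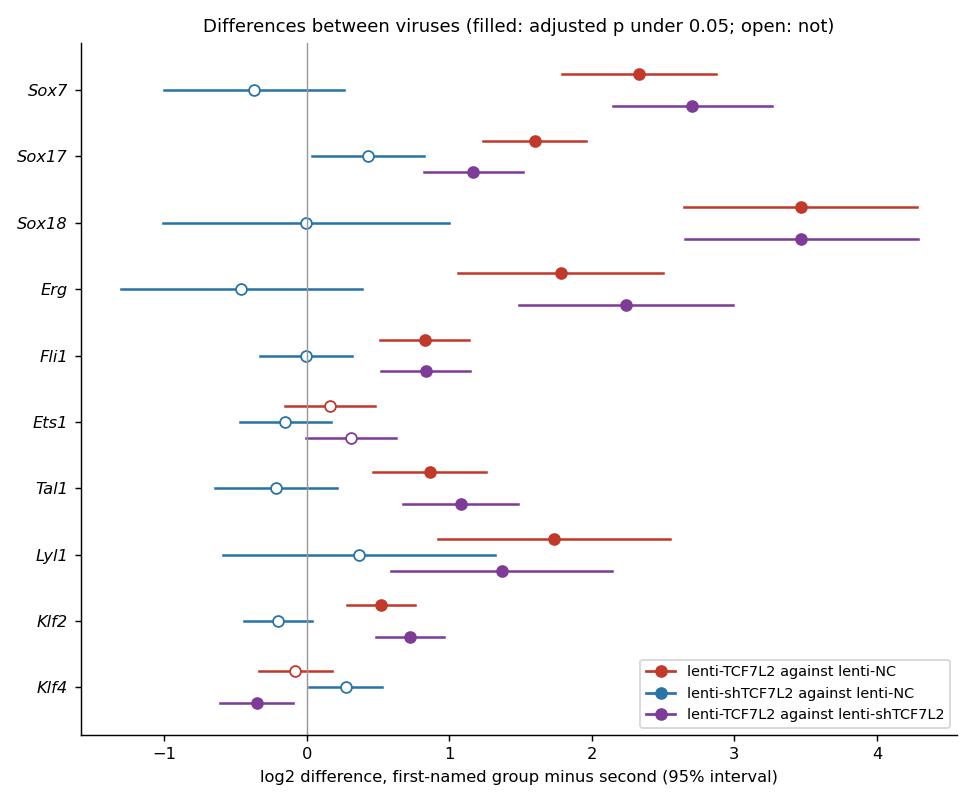
Log2 differences of the 10 factors in the 3 comparisons, first-named group minus second, with 95% intervals; filled points passed an adjusted p of 0.05 and open points did not. The lenti-TCF7L2 points of Sox18 (3.46 against lenti-NC and 3.47 against lenti-shTCF7L2) lie farthest right, and all points of lenti-shTCF7L2 against lenti-NC are open.

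With all 9 libraries in the fit, no factor was called with the hairpin virus; with only the 6 libraries compared, 3 were. In lenti-shTCF7L2 against lenti-NC, 0 of the 10 passed the edgeR test and 0 passed DESeq2 or limma on log2 FPKM, where 3.64% of all genes were called by edgeR, 1.32% higher and 2.32% lower. With only the 6 libraries compared, the 3 factors called by edgeR were Klf4 at 0.27 (adjusted p = 0.000321), Klf2 at -0.20 (adjusted p = 0.0340) and Ets1 at -0.15 (adjusted p = 0.0375). In that fit genes called numbered 3294, against 428 with all 9. The 3 calls thus came with many more calls over all genes, and are not read as a result about the factors. With no adjustment, 2 of the 10 had an unadjusted p under 0.05, as did 16.0% of all genes tested. These were Sox17, higher by a log2 difference of 0.43 (SE 0.17, adjusted p = 0.280, edgeR), and Klf4, higher by 0.27 (SE 0.11, adjusted p = 0.272, edgeR). In both the 3 lenti-shTCF7L2 libraries lay above the 3 lenti-NC libraries. Klf2 did not overlap between the groups, with the hairpin libraries lower, and had a difference of -0.20 (adjusted p = 0.409, edgeR). Groups did not overlap in either direction for 40.9% of all genes tested, and did not overlap and were higher with the hairpin for 19.9%. For Sox18 the difference was -0.01 with a 95% interval of -1.01 to 1.00, so a change of up to that size in either direction could not be resolved. Sox7 had -0.37 (adjusted p = 0.623, edgeR) and Erg -0.46 (adjusted p = 0.663, edgeR). Without lenti-TCF7L2 replicate 3 Klf4 passed the test at 0.26 (adjusted p = 0.0130, edgeR). The differences of Sox18 and Fli1 changed sign with the library left out: Sox18 was 0.30 on leaving out lenti-NC replicate 2, 0.15 or 0.11 on leaving out replicate 2 or 3 of the hairpin group, and Fli1 was 0.075 on leaving out replicate 3 of the hairpin group and 0.001 on leaving out lenti-NC replicate 1.

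Between the TCF7L2 viruses, lenti-TCF7L2 against lenti-shTCF7L2, 8 factors rose and 1 fell, where 33.1% of all genes were called in either direction, 18.4% higher and 14.7% lower. Groups did not overlap for 9 factors and for 47.2% of all genes. A rise of at least 1 on the log2 scale was called for 6 factors and for 5.14% of all genes. This comparison shares the lenti-TCF7L2 libraries with the first, so its values are set beside those and are not separate evidence. Sox18 was higher by 3.47, Sox7 by 2.71, Erg by 2.24, Lyl1 by 1.37, Sox17 by 1.17, Tal1 by 1.08, Fli1 by 0.83 and Klf2 by 0.73 (edgeR, all adjusted p under 0.05). Klf4 fell, with a log2 difference of -0.35 (SE 0.11, adjusted p = 0.0402, edgeR). That call was lost without lenti-NC replicate 1, 2 or 3 (adjusted p = 0.0640, 0.0602 and 0.0599), lenti-TCF7L2 replicate 1 (0.0630), or lenti-shTCF7L2 replicate 1, 2 or 3 (0.0684, 0.0708 and 0.128), with log2 values of -0.31 to -0.39. It was also lost with only the 6 libraries compared (adjusted p = 0.0986), with limma on log2(FPKM + 1) and no filter (adjusted p = 0.0549) and with a replicate block (adjusted p = 0.0693), in all 10 of 21 alternatives. Without lenti-TCF7L2 replicate 3 the difference was -0.23 (adjusted p = 0.0143) and still called. The Lyl1 call was lost without lenti-shTCF7L2 replicate 2 (1.299, adjusted p = 0.0578) or replicate 3 (1.32, adjusted p = 0.0551). Ets1 was not called at 0.31 (adjusted p = 0.119, edgeR), and was called at 0.46 without lenti-TCF7L2 replicate 3 (adjusted p = 0.000532).

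Levels can be compared between the factors per length, as FPKM (fragments scaled to gene length and library size). In lenti-NC cultures Klf4 averaged 34.3, Klf2 25.1, Ets1 19.7 and Fli1 3.43 FPKM, each range clear of the next. Erg (1.04), Sox18 (0.817), Sox17 (0.753), Sox7 (0.683) and Tal1 (0.593) followed with ranges that overlapped their neighbours, and Lyl1 was lowest at 0.327. With lenti-shTCF7L2 the order began likewise, with Klf4 at 42.4, Klf2 at 22.3, Ets1 at 18.1 and Fli1 at 3.49 FPKM, and the other 6 factors lay between 0.43 and 1.04 with overlapping neighbours. With lenti-TCF7L2 the averages were Klf2 37.3, Klf4 33.6 and Ets1 22.8 FPKM, where Klf2 and Klf4 overlapped. Sox18 followed at 9.38, overlapping Fli1 at 6.31, then Erg at 3.69 and Sox7 at 3.57, which overlapped, then Sox17 at 2.36, and Lyl1 at 1.14 and Tal1 at 1.11, which overlapped. Sox18 was thus 6th in lenti-NC cultures and 4th in lenti-TCF7L2 cultures.

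Other members of the same families were counted in lenti-TCF7L2 against lenti-NC. Of the 8 other SOX genes tested, 1 rose and 1 fell with a median log2 difference of -0.29, against 0.03 for all genes tested: Sox13 rose by 0.61 (adjusted p = 0.00433) and Sox6, a cartilage and muscle factor, fell by 1.19 (adjusted p = 0.0102, edgeR). Of 16 other ETS genes, 4 rose and 1 fell with a median of -0.13; Elf5, an epithelial factor, rose by 2.67 (adjusted p = 0.000135), Elk3 by 0.60 (adjusted p = 0.000373), and Etv4 by 0.28, while Etv1 fell by 0.76. Of 12 other KLF genes, 1 rose and none fell, with a median of -0.14, and this was Klf16 at 0.37 (adjusted p = 0.00748, edgeR). The lenti-TCF7L2 library that stood apart by transcript length, replicate 3, read lowest for all 3 families: relative to lenti-NC its median log2 level was -0.81 for the SOX, -0.49 for the ETS and -0.44 for the KLF genes. In replicates 1 and 2 the medians were -0.14 and -0.05 for the SOX, -0.08 and 0.20 for the ETS, and 0.002 and 0.28 for the KLF genes. Without replicate 3 the median log2 differences were -0.14 for the SOX, 0.05 for the ETS and 0.25 for the KLF genes, so the sign turned for the ETS and KLF genes, and the counts were 1 higher and 1 lower, 4 and 4, and 3 and 1 in that order.

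Partners of TAL1 and LYL1 gave 4 rises and 1 fall among 9 tested, with a median log2 difference of 0.54. Relative to lenti-NC their median log2 level was 0.58, 0.53 and -0.23 in lenti-TCF7L2 replicates 1, 2 and 3, and without replicate 3, 6 rose and 1 fell, with a median difference of 0.54. Lmo2, the bridging adaptor of the complex, rose by 2.06 (10.5 ± 2.80 CPM with lenti-TCF7L2 and 2.51 ± 0.548 CPM with lenti-NC, adjusted p = 0.000314, edgeR). Gata2 rose by 1.06, Ldb1 by 0.58 and the E protein gene Tcf3 by 0.54. Among 21 other vascular transcription factors, 10 rose and 2 fell, with a median of 0.42. This list shares genes with those above, such as Lmo2 and Elk3, which are among its rises. The rises included Bcl6b at 2.38 (adjusted p = 0.000260, edgeR) and Hlx at 1.296. The falls were Prox1, with a log2 difference of -1.675 (adjusted p = 0.0341, edgeR), and Hey2, with -0.756 (adjusted p = 0.00279, edgeR). Without lenti-TCF7L2 replicate 3 the counts were 12 and 4.

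Known endothelial targets of SoxF and ETS factors gave 19 rises and 3 falls among 27 tested, with a median log2 difference of 0.79. Of all genes tested, 18.0% were called higher and 13.8% lower in this comparison. The Notch ligand Dll4 rose by 3.53 (10.2 ± 3.33 CPM with lenti-TCF7L2 and 0.873 ± 0.240 CPM with lenti-NC, adjusted p = 0.000128, edgeR), the adhesion gene Pecam1 by 2.54 and the receptor gene Tie1 by 2.17. Esam, a junction gene, rose by 1.504. The falls included Flt4, with a log2 difference of -1.01 (adjusted p = 0.0224, edgeR), and Cdh2, with -0.34 (adjusted p = 0.0420, edgeR). Known endothelial targets of KLF2 and KLF4 gave 9 rises and 4 falls among 18 tested, with a median of 0.36. Nos3, the endothelial nitric oxide synthase, rose by 2.33 and Adamts4 by 1.34, while the fatty acid receptor Cd36 fell by 1.20 and the sphingosine receptor S1pr1 by 0.83. Of 13 genes of the pathway upstream of KLF2 and KLF4, 4 rose and 2 fell (edgeR). Higher were the kinase gene Mapk7 by 0.49 (adjusted p = 0.00124), Ccm2 by 0.43 (adjusted p = 0.0093), Pecam1 by 2.54 and Cdh5 by 1.97. Lower were Krit1 by 0.37 (adjusted p = 0.00796) and Mef2a by 1.02 (adjusted p = 0.0439). In lenti-shTCF7L2 against lenti-NC, 0 of the SoxF and ETS targets rose and 1 fell, and 1 of the KLF targets rose and 4 fell, S1pr1 among them at -0.57 (adjusted p = 0.00332, edgeR).

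**Figure D3:**
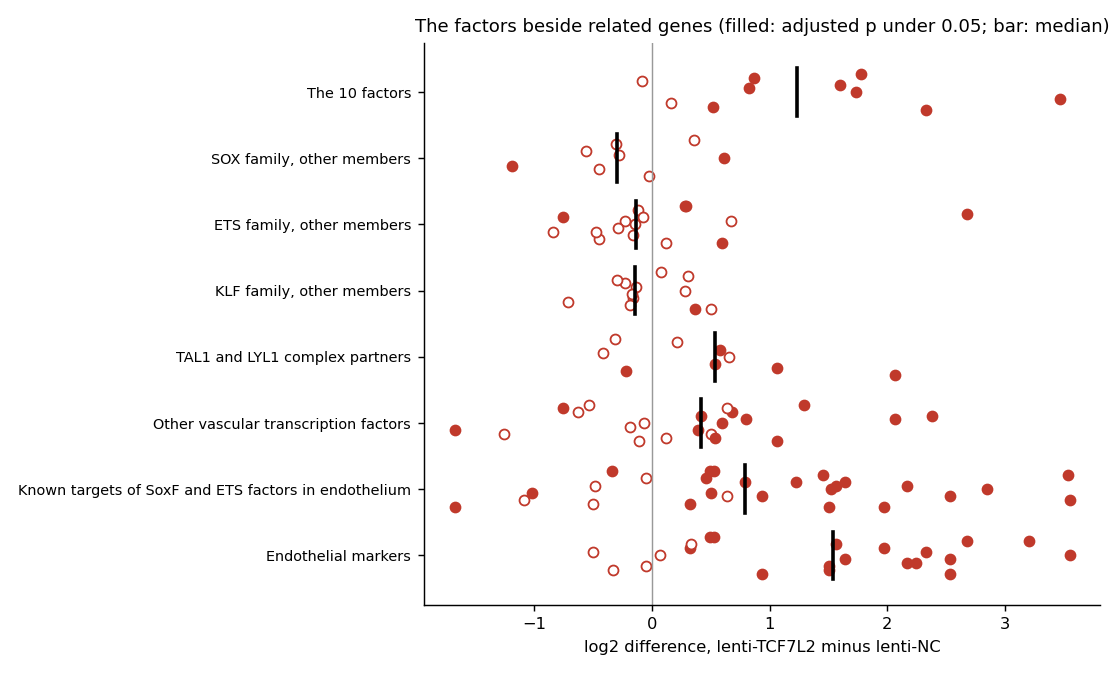
Log2 differences of lenti-TCF7L2 minus lenti-NC for the 10 factors and 7 lists of related genes; filled points passed an adjusted p of 0.05 and bars are medians. The factors have a median of 1.23, the other SOX, ETS and KLF genes -0.29, -0.13 and -0.14 (-0.14, 0.05 and 0.25 without lenti-TCF7L2 replicate 3), and the endothelial markers 1.54. Some genes appear in more than 1 list.

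Endothelial markers rose as well. Some of them were already counted in the lists above, such as Pecam1 and Tie1 among the SoxF and ETS targets and Nos3 among the KLF targets. The counts of these lists are therefore not separate. Of 22 tested markers 17 rose and none fell with lenti-TCF7L2, with a median log2 difference of 1.54, and their summed level ranged over 1091 to 1288 CPM with lenti-TCF7L2, 653 to 667 CPM with lenti-shTCF7L2 and 757 to 795 CPM with lenti-NC. Emcn rose by 3.20, while the VEGF receptor genes Kdr (-0.50, adjusted p = 0.0722, edgeR) and Flt1 (-0.05, adjusted p = 0.805, edgeR) were not called. Flt4, the VEGF receptor gene of lymphatic endothelium, which stands among the SoxF and ETS targets and not in the marker list, fell by 1.01 (adjusted p = 0.0224, edgeR). Their part in the rise of the factors was not tested. Against the median of these 22 markers in each library, Sox18 was higher by 1.49 to 2.24 log2 units across the lenti-TCF7L2 libraries and Sox7 by 0.61 to 1.11. Sox17 (0.04 to 0.25), Erg (0.07 to 0.65) and Lyl1 (-0.22 to 0.52) were near it. Tal1 (-0.61 to -0.49), Fli1 (-0.99 to -0.36), Klf2 (-1.25 to -0.51), Ets1 (-1.75 to -0.93) and Klf4 (-1.91 to -1.25) lay below. The log2 difference of Sox18 exceeded that of 21 of the 22 markers, and that of Sox7 exceeded 17.

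Markers of other cells moved too. Of 14 macrophage and leukocyte markers 9 rose and none fell, with summed levels of 113 to 121 CPM with lenti-TCF7L2, 65.0 to 68.1 CPM with lenti-shTCF7L2 and 61.4 to 67.7 CPM with lenti-NC. Among the rises were Fcer1g by 1.435, Cd68 by 1.17, Cd53 by 1.02 and Cd14 by 0.82 (edgeR). Other members of that list were near 0 and not tested: Cd163 had at most 1 count in any library, C1qa at most 4, and C1qb and C1qc at most 3. Among the mast cell, platelet and erythroid markers, 5 of 14 listed were tested and 2 rose, Hdc by 1.25 and Pf4 by 1.63; Gata1 had at most 1 count and Hbb at most 3. Of 12 fibroblast markers 6 rose and 2 fell (without lenti-TCF7L2 replicate 3, 9 and 2), of 12 smooth muscle and pericyte markers 2 rose and 1 fell (4 and 3), and of 6 epicardial markers 3 rose and 1 fell (4 and 1). Summed fibroblast levels were 37792 to 45313 CPM with lenti-TCF7L2, 37853 to 39872 CPM with lenti-shTCF7L2 and 34931 to 36079 CPM with lenti-NC. Gene by gene, 0 of the 12 fibroblast markers rose and 5 fell in lenti-shTCF7L2 against lenti-NC, with a median log2 difference of -0.45. The higher sum with the hairpin thus does not stand for most of these genes. Of all genes tested, 1.32% were called higher and 2.32% lower there. Of 13 cardiomyocyte markers 11 fell and none rose, with summed levels of 22920 to 28949 CPM with lenti-TCF7L2, 48741 to 49302 CPM with lenti-shTCF7L2 and 51327 to 52038 CPM with lenti-NC. The part of any of these lists in the values of the factors was not tested.

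**Figure D4:**
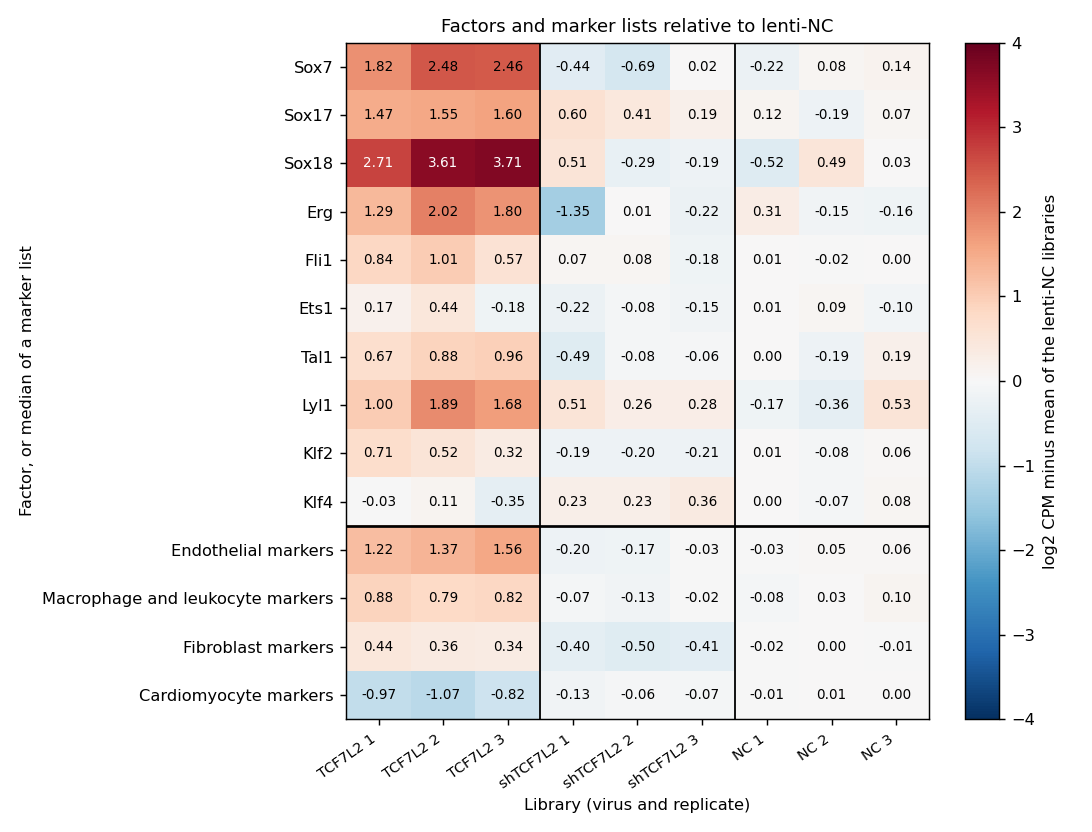
Log2 CPM of each factor and median of each marker list in every library, minus the mean of the lenti-NC libraries, with lenti-TCF7L2 libraries left and lenti-NC libraries right. Sox18 reads 2.71, 3.61 and 3.71 in the lenti-TCF7L2 libraries, where the endothelial median reads 1.22 to 1.56 and the cardiomyocyte median -1.07 to -0.82.

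The genes whose levels over the 9 libraries lay closest to a factor were ranked by the root mean square difference of log2 CPM relative to lenti-NC, as a description over 9 libraries in 3 groups. Closest to Sox18 were Dll4 (0.40) and the junction gene Cldn5 (0.43), with Fam110d at 0.48. Closest to Sox7 were Angptl4 (0.22), Pecam1 (0.23) and Ccl6 (0.24). Closest to Erg was Apold1 (0.32), and to Lyl1 were Notch4 (0.26) and Sox17 (0.28). Sox17 lay closest to Suv39h1 (0.15). Ets1 lay closest to Smad3 and Map4k4 (both 0.06), Klf4 to Rgs12 (0.06), Klf2 to Col6a2 (0.07), Fli1 to Galnt16 (0.08) and Tal1 to Ns5atp9 (0.12). Of 18 coding neighbours of the factors other than members, 10 were tested; Tcea2 beside Sox18 rose by 0.54, Trmt1 beside Lyl1 by 0.58 and Ap1m1 beside Klf2 by 0.46, and none fell.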

How the data were processed

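Messenger RNA was measured in 9 libraries, 3 per virus, grouped by sample title. The authors deposited 1 table per library with the expected count of each gene (estimated fragments, not normalised), its FPKM (fragments scaled to gene length and library size) and its length, per the file headers. The submitters' processing notes name the genome build rn6 and the tools RSEM 1.3.1, DESeq2 1.4.5, Bowtie2 and HISAT2 without roles; strand use in counting is not given in the sources used here. The labels do not say that replicates were separate cultures, so p-values measure the spread between these samples, which may be technical. As printed, 84.2% to 84.5% of a library's deposited expected counts were whole.

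A gene missing from a library's table was given a count of 0, and counts were rounded. filterByExpr kept 11761 genes and set aside 2846. Differences were tested with edgeR 4.0.16 in R 4.3.3 (TMM scaling, quasi-likelihood test, 2-sided, all 9 libraries, group as the only term, Benjamini-Hochberg over all genes tested); an adjusted p under 0.05 was called. The standard error is the size of the log2 difference over the square root of F. Variation between libraries (biological coefficient) was 14.9%. CPM use TMM-scaled library sizes, and log2 CPM a prior count of 2. A floor of 3 counts is 0.179 to 0.202 CPM per library, for counting error only.

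The members and lists were chosen with earlier results of these data known. Named genes were the 10 members, Tcf7l2, up to 4 called genes of smallest adjusted p per list and up to 3 nearest genes per member. Chosen after their values were seen were Robo4, Cd163, the C1q genes, Gata1, Hbb, Kdr, Flt1, Flt4, Cdh2, Ccm2, Mef2a, Prox1, Hey2 and the neighbours on the chromosome. The procedure was tested on simulated data. Alternatives were DESeq2 1.42.0, limma 3.58.1 on log2(FPKM + 1) and log2(FPKM + 0.1), upper-quartile or RLE scaling, a minimum of 10 counts in 6 libraries, no filter, a replicate block, only the 6 libraries compared, each library left out, and a length correction (lowess trend, span 0.3). List counts without lenti-TCF7L2 replicate 3 or with the length correction were added after seeing the data. Promoters, gene names and gene order are from RefSeq GRCr8.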

Additional observations from a re-analysis of the deposited data

How the results depend on the processing

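Over 21 alternatives, Sox7, Sox17, Sox18, Erg and Fli1 kept their rise with lenti-TCF7L2 against lenti-NC, with Sox18 at 2.47 to 3.76 and Sox7 at 1.43 to 2.51; Tal1 kept its rise in 19 of 19 and Lyl1 in 18 of 18; both gave no value under the FPKM filter, and Lyl1 none with a minimum of 10 counts. With a library left out Ets1 ran from -0.007 to 0.289 and Klf4 from -0.190 to 0.021, and Klf4 was 0.009 with the length correction without lenti-TCF7L2 replicate 3. For lenti-shTCF7L2 against lenti-NC, Sox18 turned positive at 0.014 with upper-quartile scaling, 0.018 with log2(FPKM + 1) with and without the filter, 0.044 with log2(FPKM + 0.1) and 0.040 with the replicate block, and ran from -0.331 to 0.297 with a library left out. Fli1 turned positive at 0.014, 0.018 and 0.022 with the same scaling and FPKM settings, and ran from -0.050 to 0.075 with a library left out. The cause was not tested. Called genes numbered 3741 with lenti-TCF7L2 against lenti-NC, 2321 with only the 6 libraries and 2430 to 5503 with a library left out. For lenti-shTCF7L2 against lenti-NC they numbered 428, 651 with DESeq2, 244 with the replicate block, 3294 with only the 6 libraries, 979 with the length correction, 2603 with that and without lenti-TCF7L2 replicate 3, and 88 to 2056 with a library left out, the highest without lenti-TCF7L2 replicate 3. Members called there were 0, 3 with only the 6 libraries (Klf4 higher, Klf2 and Ets1 lower), 2 with the length correction without lenti-TCF7L2 replicate 3 (Klf4 and Klf2), and 0 to 1 with a library left out. Between the TCF7L2 viruses 3890 genes were called, 5977 with the length correction without that library, and 2649 to 5405 with a library left out. Members called ranged from 6 to 9 against lenti-NC and 7 to 10 between the TCF7L2 viruses. The labels do not say whether replicate numbers pair the libraries, and weak correlations cannot show that they do not. Residual correlations of same-numbered libraries ran from -0.067 to 0.151, with 2 of 9 over 0.1. Those 2 were of lenti-TCF7L2 replicate 3 with lenti-NC replicate 3 (0.151) and lenti-shTCF7L2 replicate 3 (0.106). Not every library correlated best with its own number. With the replicate block the call of Klf4 between the TCF7L2 viruses was lost (adjusted p = 0.0693), and no other call among the factors changed. With 3 libraries a group, the low counts of Lyl1, Erg and Sox18 in lenti-NC cultures limit the precision of their differences.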

Other observations

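Robo4, an endothelial guidance receptor gene and a known target of these factors, did not enter the tests. Its estimated counts were 22.8, 68.9 and 0 with lenti-TCF7L2, 0 in all 3 libraries with lenti-shTCF7L2, and 2.75, 0.24 and 0 with lenti-NC.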
